A study of Oryza sativa with 9 samples.

Results

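A set of 231 rice genes had lower transcript levels in young panicles of both *GSE9* transgenic lines, ZH11-OE-1 and ZH11-Cas9-1, than in panicles of their parent variety ZH11. The set was chosen from the measured values themselves. A gene was a member when its mean over the 9 libraries was at least 2 FPKM (a read density scaled by transcript length and library size), when the highest of its 6 values in the transgenic lines lay below the lowest of its 3 values in ZH11, and when its mean of log2(FPKM + 1) lay at least 0.6 below ZH11 in each line. A stretch of chromosome 7 with 92 rows of the table was left out of the choice, and no row was lost through that alone. The members were 231 of 37863 rows, or 1.19% of the 19376 rows with a mean of at least 2 FPKM.

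ZH11 (Zhonghua 11) is a *japonica* rice variety. ZH11-OE-1 carries the *GSE9* coding sequence under a ubiquitin promoter, which drives expression in most cells of the plant, and ZH11-Cas9-1 is a *GSE9* knockout made with CRISPR/Cas9, in which a ubiquitin promoter drives Cas9 and a U3b promoter drives the guide RNAs. The panicles were taken before heading by the sample labels, or before anthesis by the methods of the study, with 3 libraries per genotype that the study describes as independent repeats. Each transgenic genotype was 1 line, both lines share the ZH11 background, and both, unlike ZH11, went through transformation. An effect of *GSE9* on these genes and an effect of transformation therefore cannot be told apart. The level of *GSE9* itself is not given here, because no source used here ties its locus, which the study gives in another system of identifiers, to a row of the table. A row of chromosome 9 singled out after its values were seen, Os09g0242600, had 2388, 1821 and 1711 FPKM in ZH11-OE-1, 21.0, 23.1 and 22.9 FPKM in ZH11-Cas9-1, and 21.6, 24.2 and 18.4 FPKM in ZH11, and whether it is *GSE9* was not tested.

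*GSE9* arose in rice from sequence that did not code for protein, and its protein has no known domain. Grain shape in rice is set by the spikelet hull, whose palea and lemma grow in the young panicle, and a library from whole panicles mixes hull, anther, pistil, lodicule and branch tissue. The overexpression and the knockout line were made to change the dose of *GSE9* in opposite senses, and the members are genes that were low in both. The values are from bulk tissue, so fewer cells of a type and less RNA per cell cannot be told apart.

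The table gives identifiers and no gene names, and 0 of the 231 members matched the reference table of gene names used here. The members are therefore described by their identifier, position and values, with no role other than a place in the gene lists below. Relative depth, estimated from the steps between low values, ran from 0.931 to 1.07 with ZH11 replicate 1 set to 1. Total FPKM per library was 635209 to 650991 in ZH11-OE-1, 679258 to 701261 in ZH11-Cas9-1 and 651917 to 676384 in ZH11. The tissue label was set beside 16 floral organ identity genes (MADS-box factors that specify the organs of the spikelet), and all 16 averaged 2 FPKM or more. This is a loose check, since 19376 of all 37863 rows reached that mean and no other tissue was compared.

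The members were moderately expressed genes in ZH11. Their mean level there ran from 3.22 to 1026 FPKM with a median of 14.5 FPKM, against a median of 13.3 FPKM over all rows with a mean of at least 2 FPKM. There were 147 members at 10 FPKM or more in ZH11 and 17 at 100 FPKM or more, and 84 were under 10 FPKM. In the transgenic lines the median level of the members was 6.65 FPKM in ZH11-OE-1 (0.473 to 373 FPKM) and 7.27 FPKM in ZH11-Cas9-1 (0.487 to 339 FPKM). The median ratio of levels was 0.452 for ZH11-OE-1 to ZH11 and 0.495 for ZH11-Cas9-1 to ZH11.

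Summed over the 231 members, the level was 4482, 3966 and 3468 FPKM in replicates 1, 2 and 3 of ZH11-OE-1, 5103, 4193 and 3594 FPKM in those of ZH11-Cas9-1, and 9009, 8651 and 9847 FPKM in those of ZH11. All 6 libraries of the transgenic lines were far below all 3 of ZH11, which the choice of members fixes. As a share of the FPKM of a library, the members took 0.535% to 0.689% in ZH11-OE-1, 0.529% to 0.728% in ZH11-Cas9-1 and 1.30% to 1.51% in ZH11.

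**Figure D1:**
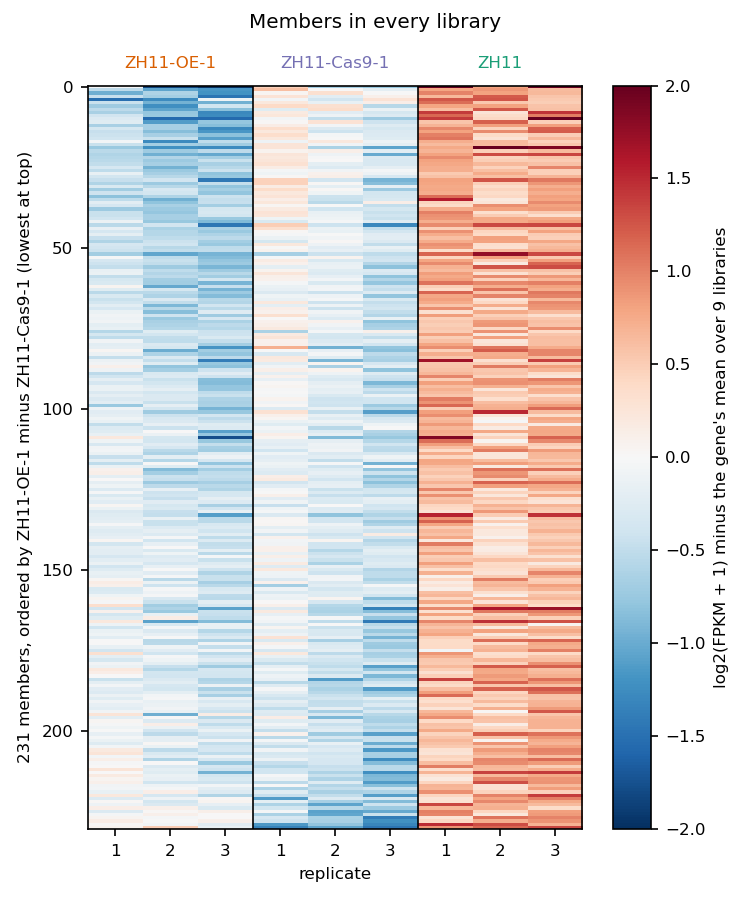
Level of each of the 231 members (rows) in each of the 9 libraries (columns, 3 replicates per genotype), as log2(FPKM + 1) minus the mean of the gene over the 9 libraries, with blue for lower and red for higher values and colours that saturate at -2 and 2. Members are ordered by the difference ZH11-OE-1 minus ZH11-Cas9-1, from -1.08 at the top to 1.44 at the bottom, and the 3 ZH11 columns are the highest in every row because the members were chosen so.

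The falls from ZH11, which chose the members and are given as a description with no test, ran on the log2(FPKM + 1) scale from -3.14 to -0.60 in ZH11-OE-1 with a median of -1.02, and from -2.42 to -0.60 in ZH11-Cas9-1 with a median of -0.89. Over all rows with a mean of at least 2 FPKM the medians were -0.04 and -0.02. There were 124 members with a fall of at least 1 on this scale in ZH11-OE-1 and 84 in ZH11-Cas9-1. Of these, 58 had it in both lines, 66 in ZH11-OE-1 only and 26 in ZH11-Cas9-1 only, and the other 81 members had it in neither line. A fall of at least 2 was seen in 6 members in ZH11-OE-1 and in 5 in ZH11-Cas9-1, of which 3 were shared. These values share the ZH11 libraries and the pseudocount of 1 FPKM understates the change of low genes.

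The members were one corner of a larger group. All 6 libraries of the lines lay below all 3 of ZH11 in 1171 rows, 6.04% of those with a mean of at least 2 FPKM. The mirror pattern, with all 6 libraries above ZH11, was seen in 556 rows, or 2.87%. Of the 1171 rows, 725 fell by less than 0.6 in both lines, 146 passed 0.6 in ZH11-OE-1 only and 69 in ZH11-Cas9-1 only. A further 52 rows met every criterion but the mean of 2 FPKM. The set has no natural edge at 0.6. The smaller of the 2 falls was 0.602 in Os06g0547100, 0.602 in Os11g0444700 and 0.603 in Os01g0302000, just inside, and 0.598 in Os01g0594900, 0.596 in Os11g0526000 and 0.595 in Os01g0808900, just outside. Leaving out 1 library could change the set by more. It grew to 361 members without ZH11-Cas9-1 replicate 1 and to 352 without ZH11 replicate 2, and these sets held 226 and 215 of the 231. A library left out can only loosen the requirement of no overlap, although it also moves the group means.

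**Figure D2:**
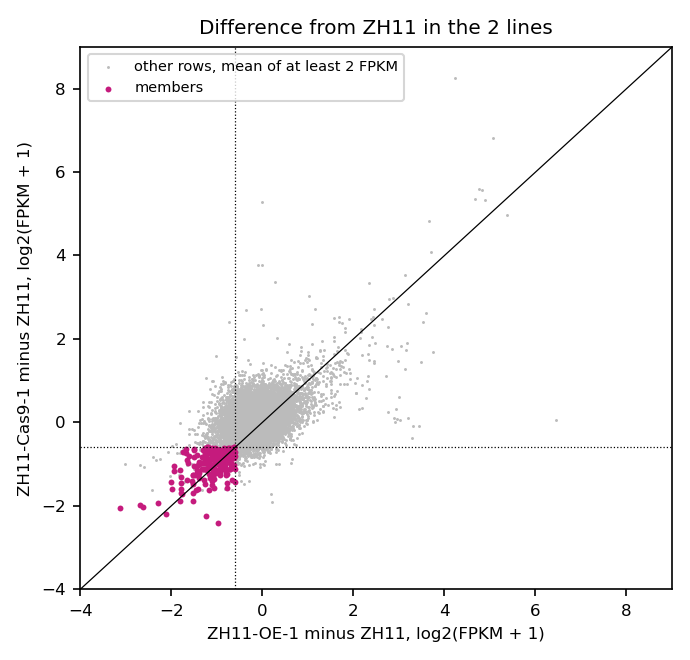
Difference from ZH11 in mean log2(FPKM + 1), for ZH11-OE-1 (x axis) and ZH11-Cas9-1 (y axis), of the 231 members (magenta) and of the other rows with a mean of at least 2 FPKM (grey). Dotted lines mark falls of 0.6 and the solid line marks equal differences, and the members fill the lower left corner, where grey points failed the requirement that no line library reaches the lowest ZH11 library.

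The distance between the lines and ZH11 was narrow for many members. The lowest ZH11 library was a median of 1.30 times the highest line library, it was under 1.1 times in 38 members, and it was at least 1.5 times in 53. The widest gap, 3.39 times, was in Os03g0251000 on chromosome 3, a gene singled out after its values were seen. It had 4.16, 3.08 and 3.38 FPKM in ZH11-OE-1, 4.27, 5.20 and 4.89 FPKM in ZH11-Cas9-1, and 17.6, 27.3 and 19.7 FPKM in ZH11. Its values in both lines were far under all 3 of ZH11. Every ZH11-OE-1 library was also below every ZH11-Cas9-1 library, by a small step next to the distance from ZH11. The nearest values were 4.16 and 4.27 FPKM, and such order without overlap was found in 25.8% of all rows with a mean of at least 2 FPKM. The gene did not pass between the lines in the limma test described below (difference -0.36, adjusted p = 0.130).

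By the smaller of the 2 falls, Os08g0189200 on chromosome 8 led the members with 2.12. It had 129, 110 and 80.0 FPKM in ZH11-OE-1, 138, 110 and 65.6 FPKM in ZH11-Cas9-1, and 329, 521 and 562 FPKM in ZH11. The levels of the 2 lines overlapped, and the lowest ZH11 library was 2.39 times the highest line library. The means were 106 ± 24.8 FPKM in ZH11-OE-1, 104 ± 36.3 FPKM in ZH11-Cas9-1 and 471 ± 125 FPKM in ZH11 (SD, n = 3 each).

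The next, Os02g0135000 on chromosome 2, was far more variable. It had 13.9, 3.25 and 1.93 FPKM in ZH11-OE-1, 19.9, 8.45 and 7.96 FPKM in ZH11-Cas9-1, and 79.3, 25.4 and 59.0 FPKM in ZH11. Its fall of -3.14 in ZH11-OE-1 was the deepest of any member in that line, yet its ZH11 replicate 2 was only 1.28 times the highest line library, and replicate 1 was the highest library in each of the 3 genotypes.

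The most abundant member in ZH11 was Os01g0348900 on chromosome 1. It had 454, 361 and 303 FPKM in ZH11-OE-1, 436, 348 and 233 FPKM in ZH11-Cas9-1, and 781, 1156 and 1143 FPKM in ZH11. All 6 line libraries were well under ZH11 replicate 1, its lowest ZH11 library, and its ratios to ZH11 were 0.363 in ZH11-OE-1 and 0.330 in ZH11-Cas9-1. After it, Os08g0189200 was the most abundant.

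At the low end, 26 members averaged under 2 FPKM over the 6 line libraries and 1 averaged under 1 FPKM. That gene, Os02g0725500, named after its values were seen, was the only member listed at 0 in any library. It had 1.42, 0 and 0 FPKM in ZH11-OE-1, 1.82, 1.09 and 0.779 FPKM in ZH11-Cas9-1, and 6.72, 2.93 and 20.1 FPKM in ZH11. The ZH11 libraries alone spanned more than the step between the lines and ZH11 replicate 2.

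**Figure D3:**
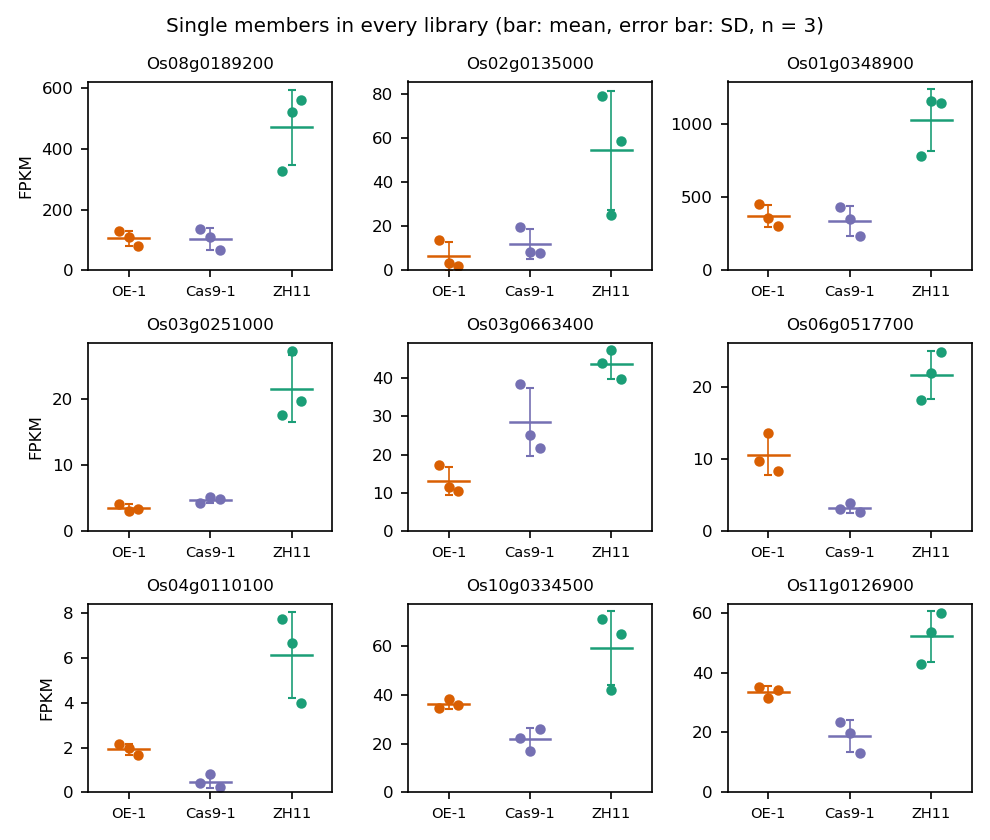
FPKM of 9 members in each library (points), with the mean (horizontal bar) and SD (error bar, n = 3), for ZH11-OE-1 (OE-1), ZH11-Cas9-1 (Cas9-1) and ZH11, each panel with its own linear axis that starts at 0. Os08g0189200 had means of 106, 104 and 471 FPKM in that order, and Os06g0517700 had 10.5, 3.21 and 21.6 FPKM.

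Between the 2 lines, the comparison asks whether overexpression and knockout of *GSE9* left these genes at the same level. The choice of members restricts it as well, since genes that were low in 1 line only were left out, so that shares of members and of all rows stand side by side below as a description only. The libraries of ZH11-OE-1 and ZH11-Cas9-1 overlapped in most members. Tested with limma on log2(FPKM + 1) over all 21780 rows with a mean of at least 1 FPKM, 26 of the 231 members passed at a Benjamini-Hochberg adjusted p under 0.05, or 11.3%, against 23.9% of all rows tested. Of these, 5 were higher in ZH11-OE-1 (2.16% of members, against 8.09% of all rows) and 21 were lower (9.09%, against 15.8%). The other 205 members did not pass, which does not show that they were equal: 49 members had an unadjusted p under 0.05, and the median standard error was 0.19 for members against 0.13 for all rows tested.

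The count of 26 depended on single libraries. In ZH11-OE-1 it dropped to 9 when replicate 2 was left out and to 15 when replicate 3 was. In ZH11-Cas9-1 leaving out replicate 1 gave 16 and leaving out replicate 2 gave 11. Quantile normalization of the libraries gave 9 higher and 16 lower, and 21 of the 26 were also called there.

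Counted by overlap alone, and under the same restriction, every ZH11-OE-1 library was below every ZH11-Cas9-1 library in 29 members (12.6%, against 25.8% of all rows with a mean of at least 2 FPKM) and above in 11 (4.76%, against 20.1%). The difference ZH11-OE-1 minus ZH11-Cas9-1 had a median of -0.08 over members, with quartiles of -0.31 and 0.10, and a median of -0.02 over all rows with a mean of at least 2 FPKM. The mean was lower in ZH11-OE-1 in 151 members and higher in 80, and 113 members differed by less than 0.2 between the lines. This lean was small and moved with the scaling: the median over members was -0.04 with median-of-ratios rescaling, with 132 members lower, and 0.00 with quantile normalization, with 112 lower.

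**Figure D4:**
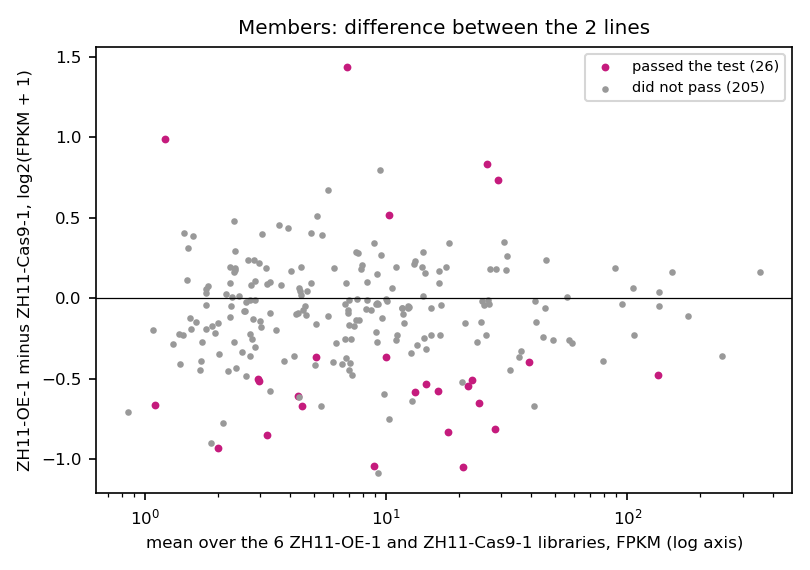
Difference in mean log2(FPKM + 1), ZH11-OE-1 minus ZH11-Cas9-1 (y axis), against the mean FPKM of the 6 libraries of the 2 lines (x axis, log scale) for the 231 members. The 26 members that passed the limma test (magenta) include 5 above 0 and 21 below 0, and the 205 others (grey) lie between -1.08 and 0.80.

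The 21 members lower in ZH11-OE-1 differed by -1.05 to -0.36 on the log2(FPKM + 1) scale, and in 19 of them no ZH11-OE-1 library reached a ZH11-Cas9-1 library. The largest was Os03g0663400 on chromosome 3. It had 17.2, 11.6 and 10.6 FPKM in ZH11-OE-1, 38.5, 25.2 and 21.8 FPKM in ZH11-Cas9-1, and 43.9, 47.2 and 39.6 FPKM in ZH11. The 3 genotypes formed 3 separate levels, with ZH11-Cas9-1 replicate 1 just under the lowest ZH11 library. The difference between the lines was -1.05 (SE 0.21, limma adjusted p = 0.00682, lower in 3 of 3 libraries), and it passed under all 18 alternatives tried.

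The 5 members higher in ZH11-OE-1 had every ZH11-OE-1 library above every ZH11-Cas9-1 library. In Os06g0517700 on chromosome 6 the levels were 9.72, 13.6 and 8.28 FPKM in ZH11-OE-1, 3.04, 3.89 and 2.70 FPKM in ZH11-Cas9-1, and 18.1, 21.9 and 24.8 FPKM in ZH11. The knockout line thus held the lowest level and the overexpression line a middle one, in every library. Any member picked as higher in ZH11-OE-1 has this order of means by the choice. The difference was 1.44 (SE 0.18, limma adjusted p = 9.67e-04), the largest of any member, and it too passed under all 18 alternatives.

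The other 4 are named because they are few, after their values were seen. Os04g0110100 on chromosome 4 had 2.15, 1.97 and 1.67 FPKM in ZH11-OE-1, 0.40, 0.803 and 0.257 FPKM in ZH11-Cas9-1, and 7.73, 6.66 and 4.01 FPKM in ZH11, with a difference between the lines of 0.99 (limma adjusted p = 0.00945). Os11g0126900 on chromosome 11 had 35.2, 31.6 and 34.0 FPKM in ZH11-OE-1, 23.6, 19.8 and 13.2 FPKM in ZH11-Cas9-1, and 42.8, 53.4 and 59.9 FPKM in ZH11, with a difference of 0.84 (limma adjusted p = 0.0104). Os10g0334500 on chromosome 10 had 34.7, 38.4 and 35.9 FPKM in ZH11-OE-1, 22.5, 16.9 and 25.8 FPKM in ZH11-Cas9-1, and 71.0, 42.1 and 65.0 FPKM in ZH11, with a difference of 0.73 (limma adjusted p = 0.0211). In these 3 genes the order of means, ZH11 above ZH11-OE-1 above ZH11-Cas9-1, was fixed by how they were picked. Their libraries did not overlap between the genotypes. In Os06g0547100 on chromosome 6, the member nearest to the edge of the choice, the levels were 13.6, 13.3 and 9.79 FPKM in ZH11-OE-1, 9.39, 8.16 and 7.07 FPKM in ZH11-Cas9-1, and 20.1, 20.8 and 16.2 FPKM in ZH11, with a difference of 0.52 (limma adjusted p = 0.0308). Its call was lost when ZH11-OE-1 replicate 1 or 2 or ZH11-Cas9-1 replicate 2 or 3 was left out (limma adjusted p of 0.0937, 0.112, 0.0837 and 0.0828), and that of Os10g0334500 without replicate 2 of ZH11-OE-1 or of ZH11-Cas9-1 (0.0778 and 0.0809).

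The members that led by fall or by level did not pass between the lines. The difference was 0.06 (SE 0.28) in Os08g0189200 and 0.16 (SE 0.24) in Os01g0348900, and their adjusted p in limma was 0.887 and 0.646. In Os02g0135000 it was -1.08, the lowest of any member, with an SE of 0.59 and a limma adjusted p of 0.198. It passed with an adjusted p of 0.0416 in limma with a replicate block, and with 0.0358 without ZH11-OE-1 replicate 1, whose 13.9 FPKM stood far above the other two libraries of that line.

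The members leaned the same way between the libraries of each line. The choice used the highest line value and the lowest ZH11 value of a gene, but not the replicate numbers. Replicate 1 was the highest of the 3 libraries in 157 members in ZH11-OE-1 and in 157 members in ZH11-Cas9-1 (68.0% each), against 22.8% and 39.1% of all rows with a mean of at least 2 FPKM. Replicate 3 was the lowest in 143 members in ZH11-OE-1 and 160 in ZH11-Cas9-1 (61.9% and 69.3%), against 23.9% and 42.0% of all rows. In 110 members replicate 1 was the highest in both lines, 47.6% of members against 10.1% of all rows. The high share in each line alone makes this joint share high, and whether the lines shared genes beyond that was not tested. The median deviation from the group mean over members was 0.17, -0.02 and -0.14 on the log2(FPKM + 1) scale in replicates 1, 2 and 3 of ZH11-OE-1 and 0.23, 0.00 and -0.21 in those of ZH11-Cas9-1, and that over all rows was within 0.05 of 0 in each of these libraries.

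In ZH11 the median deviations of the members were 0.02, -0.02 and 0.06 in replicates 1, 2 and 3. Replicate 3 was the lowest ZH11 library in 40 members (17.3%, against 42.4% of all rows), replicate 2 in 99 (42.9%, against 24.3%) and replicate 1 in 92 (39.8%, against 33.3%). The lowest ZH11 value was part of the choice. The median SD of the members within a genotype, on the log2(FPKM + 1) scale, was 0.223 for ZH11-OE-1, 0.274 for ZH11-Cas9-1 and 0.247 for ZH11, against 0.134, 0.127 and 0.147 over all rows in the same order of genotypes.

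The labels do not say that a replicate number marks a shared collection or batch. Across all rows, the deviations of same-numbered libraries correlated at r between 0.271 and 0.352 for ZH11-Cas9-1 and ZH11, against -0.282 to -0.0230 for other numbers, but at -0.0793 to 0.00141 for ZH11-OE-1 and ZH11-Cas9-1 and at -0.311 to 0.0216 for ZH11-OE-1 and ZH11. Relative depth was 0.976, 1.06 and 1.07 in replicates 1, 2 and 3 of ZH11-OE-1 and 1.05, 0.970 and 0.931 in those of ZH11-Cas9-1, so the library with the highest member levels was the shallowest of its line in ZH11-OE-1 and the deepest in ZH11-Cas9-1.

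**Figure D5:**
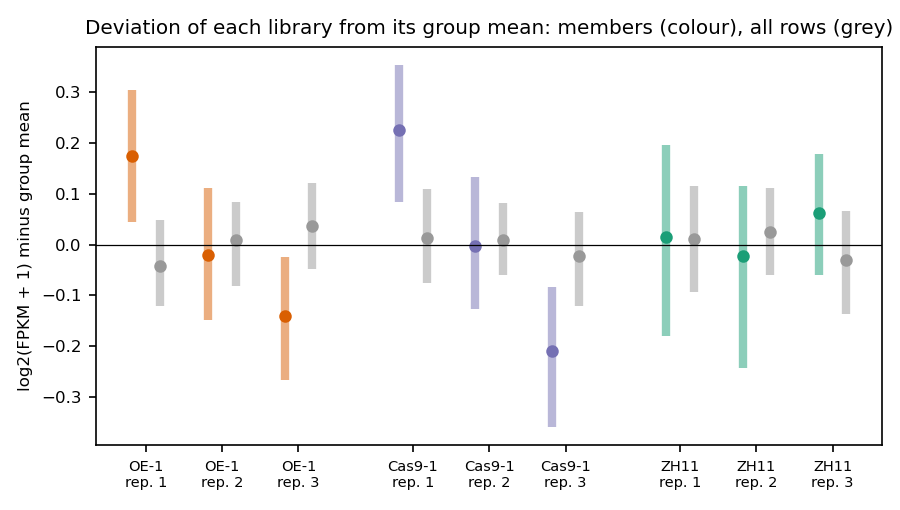
Deviation of each library from the mean of its genotype on the log2(FPKM + 1) scale, for the 231 members (coloured, left of each pair) and for all rows with a mean of at least 2 FPKM (grey, right of each pair), in ZH11-OE-1 (OE-1), ZH11-Cas9-1 (Cas9-1) and ZH11. Points are medians and bars span the quartiles, and the members lay above 0 in replicate 1 and below 0 in replicate 3 of both lines.

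The members were spread over all 12 chromosomes. Chromosome 11 held the most for its size, with 20 members, or 8.66% of members against 5.17% of rows with a mean of at least 2 FPKM. Chromosome 3 held the fewest for its size, with 22 members, or 9.52% against 13.8%. Most members stood alone: 214 had no other member within 5 rows of the table, and the other 17 formed 7 short runs, with 4 pairs of directly adjacent genes. The number of runs in scattered sets of this size was not worked out, so these counts do not show clustering.

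The longest run lay on chromosome 11 and is described because of its length, after its values were seen. It held 4 members, Os11g0700500, Os11g0700900, Os11g0701600 and Os11g0702100, within 13 rows of the table, of which 5 had a mean of at least 2 FPKM. Os11g0701600, the most abundant of them, had 10.2, 4.82 and 5.57 FPKM in ZH11-OE-1, 7.99, 7.92 and 5.14 FPKM in ZH11-Cas9-1, and 14.2, 21.8 and 21.6 FPKM in ZH11. The falls of the 4 genes ran from -1.40 to -0.78 in ZH11-OE-1 and from -1.33 to -0.66 in ZH11-Cas9-1. The fifth expressed gene of the stretch, Os11g0701800, was no member, with differences of -0.82 in ZH11-OE-1 and -1.61 in ZH11-Cas9-1, because its libraries overlapped those of ZH11. Genes that lie side by side can be copies of one another and share reads, which was not tested.

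The members were also looked up in 9 gene lists with known roles, which were written from general knowledge of rice and held 89 genes that averaged 2 FPKM or more. Of these, 3 were members (3.37%, against 1.19% of all rows at that level), 1 each in the lists of jasmonate genes, of abscisic acid, drought and cold response, and of defence. Abscisic acid is the hormone of drought and seed dormancy, and jasmonate is the hormone of wounding that also opens the florets of rice. There was no member among the 12 green tissue genes, 13 tapetum and pollen wall genes, 16 floral organ identity genes, 3 meiosis genes, 9 circadian clock genes and 11 heat shock genes measured at that level. All 6 line libraries lay below ZH11 in 3 of the 9 clock genes, against 6.04% of all rows. The same held in 2 genes each of the jasmonate, abscisic acid and defence lists, members included. It held in 1 gene each of the green tissue and tapetum lists, and in 0 of the floral organ identity, meiosis and heat shock genes.

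The abscisic acid, drought and cold list (10 genes at that level) summed to between 627 and 915 FPKM in ZH11-OE-1, 569 and 793 FPKM in ZH11-Cas9-1, and 1079 and 1572 FPKM in ZH11. Its single member, Os01g0348900, the most abundant of all members in ZH11, carried the difference. Without it the list summed to between 324 and 462 FPKM in ZH11-OE-1, 336 and 357 FPKM in ZH11-Cas9-1, and 298 and 429 FPKM in ZH11, which overlapped. The median difference of the 10 genes from ZH11 was 0.21 in ZH11-OE-1 and -0.10 in ZH11-Cas9-1. Between the lines 1 of the 10 was higher and 2 were lower in ZH11-OE-1 in the limma test, against 8.09% and 15.8% of all rows tested.

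The defence list was written to hold WRKY factors, which switch on immune genes, and pathogenesis-related proteins, which act on the invader. Only 4 of its 10 genes reached that level, Os05g0322900, Os01g0246700, Os05g0537100 and Os02g0181300, and all 4 are WRKY factors. No pathogenesis-related protein enters the values given here. The 4 genes summed to between 19.3 and 38.5 FPKM in ZH11-OE-1, 12.4 and 25.5 FPKM in ZH11-Cas9-1, and 23.5 and 40.6 FPKM in ZH11, and to overlapping ranges also without the member among them. Their median differences from ZH11 were -0.41 in ZH11-OE-1 and -0.79 in ZH11-Cas9-1. Between the lines 0 of the 4 passed in limma (2 at an unadjusted p under 0.05), against 23.9% of all rows tested.

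The jasmonate list (enzymes of jasmonate synthesis and the JAZ repressors that hold back its targets) had 11 genes at that level. Even without its 1 member it summed to between 461 and 527 FPKM in ZH11-OE-1, 485 and 631 FPKM in ZH11-Cas9-1, and 604 and 645 FPKM in ZH11, so that all ZH11-OE-1 libraries lay below ZH11 and ZH11-Cas9-1 reached into it. The median differences of the 11 genes from ZH11 were -0.11 in ZH11-OE-1 and -0.28 in ZH11-Cas9-1. Between the lines 0 of the 11 passed in limma (1 at an unadjusted p under 0.05), against 23.9% of all rows tested.

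Lists that mark cells or states of the panicle showed other patterns than the members. The tapetum and pollen wall genes (the tapetum feeds the pollen) summed to between 4439 and 5336 FPKM in ZH11-OE-1, 5417 and 7178 FPKM in ZH11-Cas9-1, and 3766 and 5903 FPKM in ZH11, with 8 of 13 above every ZH11 library in all 6 line libraries, against 2.87% of all rows. Their median differences from ZH11 were 0.89 in ZH11-OE-1 and 0.85 in ZH11-Cas9-1. The green tissue genes (antenna proteins and the small subunit of Rubisco) summed to between 6544 and 7716 FPKM in ZH11-OE-1, 10423 and 11877 FPKM in ZH11-Cas9-1, and 9927 and 13361 FPKM in ZH11. In limma 9 of 12 were lower in ZH11-OE-1 and 0 higher than in the knockout line (10 at an unadjusted p under 0.05 in either direction). Of all rows tested, 15.8% were lower and 8.09% higher in ZH11-OE-1. The heat shock genes, chaperones that rise with stress, summed to between 5280 and 10357 FPKM in ZH11-OE-1, 1912 and 5711 FPKM in ZH11-Cas9-1, and 1800 and 4467 FPKM in ZH11. Their median differences from ZH11, the largest of the 9 lists in both lines, were 2.19 in ZH11-OE-1 and 1.05 in ZH11-Cas9-1, and 1 of 11 was above every ZH11 library in all 6 line libraries. Between the lines, 1 of 11 heat shock genes was higher in ZH11-OE-1 in limma, and the tapetum list had 1 gene of 13 higher and 1 lower. These counts do not set the heat shock and tapetum lists apart from the shares of all rows.

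For the 3 other lists, median differences from ZH11 were 0.01 in ZH11-OE-1 and -0.07 in ZH11-Cas9-1 for floral organ identity, 0.35 and -0.09 for the 3 meiosis genes, and -0.04 and -0.21 for the circadian clock, given in the same order of lines. Between the lines, limma called 3 of 16 floral organ identity genes higher and 2 lower in ZH11-OE-1. It called 3 of 9 clock genes higher and 0 lower, and 0 of 3 meiosis genes (2 at an unadjusted p under 0.05). Of all rows tested, 8.09% were higher and 15.8% lower, and whether these short lists depart from those shares was not tested. The part of the cells and stresses that these lists mark in the level of the members was not tested.

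The study also followed a list of grain shape regulators, and 58 of the 62 distinct names in the copy of it used here could be tied to 1 row each by equality of group means and SDs within 0.0051 FPKM. Among them were 52 that averaged 2 FPKM or more, and 0 members, where members are 1.19% of all rows. In 2 of the 52 all 6 line libraries lay below ZH11 (3.85%, against 6.04% of all rows), so neither count sets these genes apart from the rest. *OsLG3* (Os03g0183000), an ethylene response factor of the AP2 family that promotes grain length, had 12.3, 12.6 and 10.7 FPKM in ZH11-OE-1, 16.3, 11.2 and 9.66 FPKM in ZH11-Cas9-1, and 18.6, 16.9 and 18.5 FPKM in ZH11. Its differences from ZH11 of -0.57 in ZH11-OE-1 and -0.53 in ZH11-Cas9-1 left it short of the 0.6 asked of a member. *OsMKP1* (Os05g0115800), a phosphatase that switches off MAP kinases, had differences of -0.27 in ZH11-OE-1 and -0.22 in ZH11-Cas9-1.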

How the data were processed

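RNA from young panicles was sequenced in 9 libraries, 3 per genotype, and samples were grouped by the genotype in their labels. Per the labels and the methods of the study, the authors aligned reads to the IRGSP-1.0 assembly using HISAT2 and used featureCounts for read counts per gene. The deposited values are FPKM made by the authors, and neither the step from counts to FPKM nor the use of strand is given in the sources used here. Overlapping genes and paralogs are thus uncertain. FPKM are not counts, so the DESeq2 step of the authors was not repeated.

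The members, lists and tests were chosen with earlier results of these data known. Differences are of log2(FPKM + 1). Only ZH11-OE-1 vs ZH11-Cas9-1 was tested, with limma 3.58.1 in R 4.3.3 (9 libraries, a mean per group, trend, two-sided, mean of at least 1 FPKM, Benjamini-Hochberg over all rows), which was tested on simulated data. That contrast is restricted by the choice of members, which used the values of both lines. An exact permutation test of 3 against 3 libraries cannot go below p = 0.1. Depth is known only as a relative value, so no counting interval is given. Tables and plots used Python 3.11.15, numpy 2.4.6, pandas 2.3.3 and matplotlib 3.10.9.

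Named genes were to be those with the largest smaller fall, the highest ZH11 level, the largest difference between the lines in each direction among those that passed, and the 3 on either side of the limit of 0.6. At most 2 per class without a name were printed, and other names are said to have been chosen after their values were seen. The alternatives were other minimum means, falls and pseudocounts, quantile normalization, median-of-ratios rescaling, a fit of the 2 lines only, no trend, a replicate block, a difference of at least 1 in size, and each library left out. Lists defined by words of gene descriptions, and promoter motifs, were not used here, because the reference tables hold no entry for the members.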

Additional observations from a re-analysis of the deposited data

Results flagged for a closer look

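For 6 named members the difference from ZH11 itself differed between the 2 lines, by the limma test of ZH11-OE-1 minus ZH11-Cas9-1 on the log2(FPKM + 1) scale. The difference was -1.05 in Os03g0663400, which was lower in ZH11-OE-1. It was 1.44 in Os06g0517700, 0.99 in Os04g0110100, 0.84 in Os11g0126900, 0.73 in Os10g0334500 and 0.52 in Os06g0547100, which were higher in ZH11-OE-1. These are all 5 members that passed as higher there, whereas of the 21 that passed as lower only the largest difference is named. The choice of members restricts these differences, since both lines had to be low. In all 6 no library of one line reached a library of the other.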

How the results depend on the processing

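The number of members was 450 with a fall of at least 0.4 and 58 with a fall of at least 1, since these settings loosen or tighten the choice itself. It was 265 and 158 with a minimum mean of 1 and 5 FPKM, 279 with a pseudocount of 0.1 FPKM, 206 with median-of-ratios rescaling and 214 with quantile normalization, and it ran from 199 to 361 with 1 library left out. The number of members that passed between the lines, 26, was 8 where all rows were tested and 3 with a minimum absolute difference of 1. It was 27 with the smaller pseudocount, 22 with a minimum mean of 5 FPKM, 22 with median-of-ratios rescaling, 25 with quantile normalization, 29 in the fit of the 2 lines only and 21 with no trend, and it ran from 9 to 30 with 1 library left out. Apart from the minimum difference of 1, 7 members passed under every setting that tested them and 52 under at least 1. The cause of the other changes was not tested.

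A replicate block gave 29 calls, 5 higher and 24 lower in ZH11-OE-1. Same-numbered libraries of the 2 lines had correlations of deviations across all rows between -0.08 and 0.00, and other pairs between -0.09 and 0.13. For this reason the numbers were not read as pairs in this comparison. The members themselves shared a replicate pattern, with replicate 1 the highest in both lines in 47.6% of members against 10.1% of all rows. A fit without the block leaves that pattern in their SE. Between ZH11-Cas9-1 and ZH11, which were not tested against each other, same-numbered libraries correlated at 0.27 to 0.35. With the block Os02g0135000 passed at an adjusted p of 0.0416 in limma. With 1 library left out, the difference ran from -0.23 to 0.29 in Os08g0189200, below 0 without ZH11-OE-1 replicate 1 (-0.09) or ZH11-Cas9-1 replicate 3, and from -0.083 to 0.37 in Os01g0348900, below 0 without ZH11-Cas9-1 replicate 3, never past the threshold. The call was lost under 6 of 18 alternatives in Os06g0547100, 4 of 18 in Os10g0334500 and 2 of 18 in Os11g0126900, and in Os04g0110100 only under the minimum difference of 1. With 3 libraries per genotype and a median SE of 0.19 for members, small differences between the lines were not detectable.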
